A study of Mus musculus with 28 samples.

Results

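Open chromatin was compared between Tet2-deficient mouse cells at day 5 of reprogramming with the stalling Tet2 mutant, Tet2-E, and the fibroblasts from which reprogramming started. The comparison used 8 of the 28 ATAC-seq libraries of the series, 4 of Tet2-E day 5 cells and 4 of mouse embryonic fibroblasts (MEFs, day 0), picked by their titles. Merging the overlapping peaks of these 8 libraries on chromosomes 1 to 19 and X gave 130479 regions, against 172177 when the peaks of all 28 libraries were merged. ATAC-seq uses a transposase that cuts accessible DNA and inserts sequencing adapters, so a peak marks a stretch of open chromatin. A region is scored here by how many libraries of a group had a peak in it.

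The Tet2-E day 5 cells were Tet2-/- OKSM; rtTA fibroblasts from embryos of embryonic day 12.5, of the strain background labelled V6.5 129XBI/6. They had been transduced with a pMXs retrovirus carrying Tet2-E and plated on Mito-C-treated MEF feeder cells. Reprogramming was run in medium with LIF and the kinase inhibitors PD0325901 at 1 µM and CHIR99021 at 3 µM. Doxycycline at 2 µg/mL switched on the OKSM factors. These cells were isolated by flow sorting on SSEA1-RFP. The MEFs are labelled as untreated controls of the same strain background and embryonic day, with no isolation step. Their own label names no genotype, while the series' design describes the fibroblasts of every time point as Tet2-/- with OKSM and rtTA. Virus, medium, doxycycline, feeders, sorting and 5 days of culture therefore all separate the groups and cannot be told apart. No vector-carrying library of day 0 was analysed here. The retrovirus does not restrict expression of Tet2-E to a cell type, and feeder fibroblasts could add MEF chromatin to a sample; their part was not tested. The labels give 75000 cells per library and do not say whether the replicates were separate cultures or animals. Where they were not, the p-values cover technical spread alone.

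Fibroblasts are converted to pluripotent stem cells by forced expression of Oct4, Klf4, Sox2 and Myc (OKSM). In this process regulatory regions used by fibroblasts are known to close and regions used by pluripotent cells to open. SSEA1 is a surface carbohydrate that appears on cells that have entered this path and is absent from fibroblasts. TET enzymes oxidise methylated cytosine in DNA, first to hydroxymethylcytosine and then to formylcytosine and carboxylcytosine. A stalling mutant makes the first product and little of the later ones, which separates the first step from the full reaction.

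All 8 lists held enough peaks to compare, but they differed in depth and breadth. Tet2-E day 5 libraries 1 to 4 held 47942, 52475, 50887 and 41414 peaks on these chromosomes, against 72140, 41345, 56538 and 52159 in MEF libraries 1 to 4. The groups overlapped, with means of 48180 ± 4886 and 55546 ± 12774 peaks (SD, n = 4 each; exact permutation p = 0.4, adjusted p = 0.4 over the 6 values per library tested). MEF replicate 1 held the most peaks of the 8 and MEF replicate 2 the fewest. The length covered was 9.71, 11.5, 9.76 and 9.31 Mb in Tet2-E day 5 libraries, against 18.5, 10.6, 13.3 and 12.2 Mb in MEF libraries (exact permutation p = 0.0571, adjusted p = 0.0857). Read totals were not used here, and relative depth was read from the background pileup, the genome-wide expectation per base that the deposited fold and p of each peak imply. That background was 0.84, 0.919, 0.792 and 0.891 in Tet2-E day 5 libraries, against 0.66, 0.394, 0.501 and 0.458 in MEF libraries. Every Tet2-E day 5 library lay above every MEF library (exact permutation p = 0.0286, the smallest that 4 against 4 allows, adjusted p = 0.0571). The day 5 lists thus came from a higher background and were not longer.

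**Figure D1:**
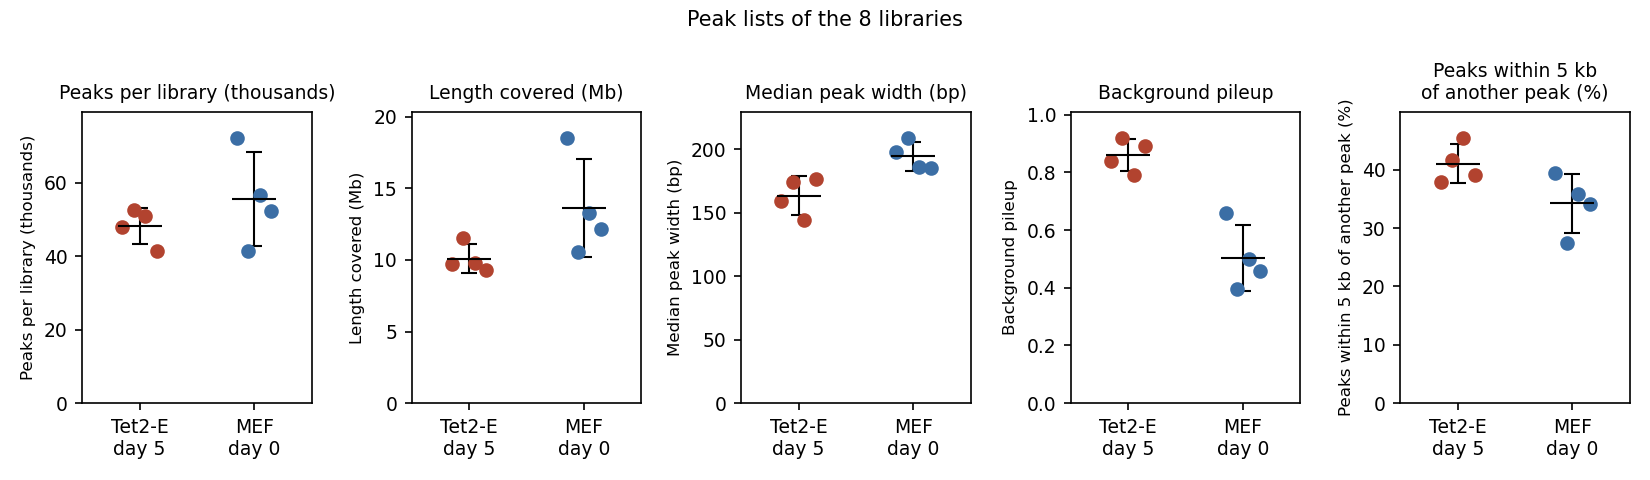
Peaks, covered length, median peak width, background pileup and share of peaks with another summit within 5 kb, for 4 Tet2-E day 5 and 4 MEF libraries. Points are libraries, long dashes are means and bars are SD; the groups do not overlap in width or in background, with means of 0.861 and 0.503 for the background pileup of Tet2-E day 5 and MEF libraries.

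Median peak width was lower in every Tet2-E day 5 list than in any MEF list, and peaks lay closer together on average, but neither difference passed correction. The median peak width was 159, 174, 144 and 177 bp in Tet2-E day 5 libraries, against 198, 209, 186 and 185 bp in MEF libraries. The mean difference was -31 bp, with group means of 164 ± 15.2 and 195 ± 11.3 bp (SD, n = 4 each; exact permutation p = 0.0286, adjusted p = 0.0571). The share of peaks with another summit of the same library within 5 kb was 37.9%, 41.7%, 45.4% and 39.0% in Tet2-E day 5 libraries, against 39.4%, 27.4%, 35.9% and 34.1% in MEF libraries (exact permutation p = 0.0857, adjusted p = 0.103). Only MEF replicate 1, the longest list, reached the range of the day 5 libraries. With every list shortened to its strongest 41345 peaks by p, differences in covered length (-2.19 Mb), width (-48.5 bp), close spacing (10.4 percentage points) and overlap all passed (exact permutation p = 0.0286, adjusted p = 0.0357 each). Background pileup was not among the values adjusted there. For width and overlap the unadjusted p was the same as with full lists, and only the adjusted p changed.

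Each library overlapped more with every library of its own group than with any of the other group, although the difference just missed the threshold after adjustment. The Jaccard index, the base pairs shared by both lists over those covered by either, averaged 0.465 among the 6 pairs of Tet2-E day 5 libraries, with a range of 0.459 to 0.472. It averaged 0.459 among the 6 pairs of MEF libraries, from 0.421 to 0.482. Across the 16 pairs of a Tet2-E day 5 and a MEF library it averaged 0.226, from 0.206 to 0.237, below every pair within a group. Within-group overlap exceeded that between groups by 0.236 (exact permutation over 35 divisions of the libraries, p = 0.0286, adjusted p = 0.0571).

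At the level of single regions, large sets of sites were called in every library of one group and none of the other. By day 5 with Tet2-E, 7947 regions were gained, called in 4 of 4 Tet2-E day 5 and 0 of 4 MEF libraries. Another 10151 were lost, called in 0 of 4 Tet2-E day 5 and 4 of 4 MEF libraries, and 11715 were called in all 8 libraries. In such bulk libraries, fewer cells with an open site and weaker opening in each cell cannot be told apart. Lost regions made up 56.1% of the 18098 changed regions. The gained regions added 3.03 Mb and the lost regions removed 3.80 Mb, counted over their merged lengths.

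The test was a 2-sided Fisher's exact test of the number of calling libraries, adjusted over the 21471 regions called in exactly 4 of the 8 libraries. No other number of calling libraries can give a p under 0.05. Gained regions were 37% and lost regions 47.3% of those tested (exact p = 0.0286, adjusted p = 0.0339 for each). The remaining 3373 regions, 15.7%, were split less cleanly. Of all 81080 regions called in at least 2 libraries, the gained were 9.8% and the lost 12.5%. Adjusted over all of these, the same p became 0.128 and no region passed, so the calls rest on leaving out regions that could not have reached the threshold. They also depended on which library was left out: without Tet2-E day 5 replicate 4, 9777 regions were gained and 10522 lost (Fisher's exact test, adjusted p = 0.0498), while without replicate 1, 2 or 3 of that group the adjusted p was 0.05012, 0.05005 and 0.05015 and 0 regions passed, with 8623 to 9084 regions higher and 10535 to 11102 lower at unadjusted p under 0.05.

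Most regions called in every library of a group were called in all or none of the libraries of the opposite group. Of the 23541 regions called in 4 of 4 Tet2-E day 5 libraries, 49.8% were called in 4 MEF libraries and 33.8% in none. Of the 27925 regions called in 4 of 4 MEF libraries, 42.0% were called in 4 Tet2-E day 5 libraries and 36.4% in none. Intermediate counts were rarer: 1069 regions had 4 Tet2-E day 5 and 1 MEF library, and 2280 had 1 Tet2-E day 5 and 4 MEF libraries. Just outside the gained set stood 4775 regions called in 3 Tet2-E day 5 and 0 MEF libraries, and just outside the lost set 7219 called in 0 Tet2-E day 5 and 3 MEF libraries. A total of 49399 regions appeared in 1 library, 21078 of them in a Tet2-E day 5 library and 28321 in a MEF library.

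**Figure D2:**
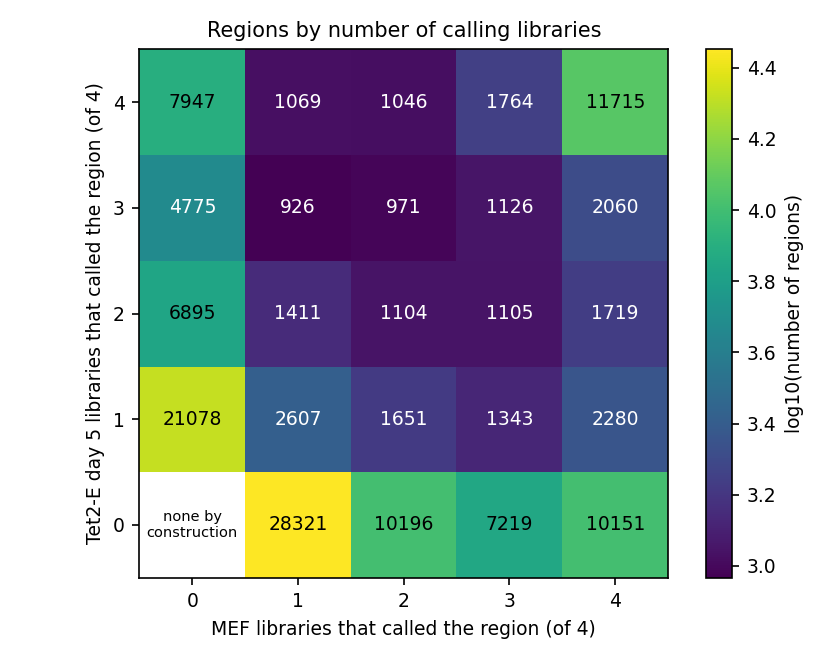
Number of merged regions by how many Tet2-E day 5 libraries (vertical axis) and MEF libraries (horizontal axis) called them, coloured by log10 of the number. The corners with any regions hold 7947 gained, 10151 lost and 11715 regions called in all 8 libraries, and each cell with calls in both groups, apart from the last of these, holds fewer than any of them.

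Most regions chosen by the other libraries of a group were called alike by the library set aside. Each library was set aside in turn, and regions were chosen by the other 3 of its group against all 4 of the other. The share called was then read in the library set aside. Regions were still merged with its peaks, and the readings follow from the same counts of calling libraries, so they are not a separate test. Regions open at day 5 by that rule (8653 to 9758) were called by the Tet2-E day 5 library set aside in 87.7%, 91.8%, 87.4% and 81.4% of cases. Regions open in MEFs and in none of the other 3 day 5 libraries (10513 to 11097) were called by it in 5.48%, 8.52%, 3.64% and 3.44%. Replicate 4, with the shortest day 5 list, called the fewest regions of both kinds. The MEF library set aside called 97.3%, 71.6%, 89.3% and 85.7% of the regions open in the other MEF libraries (10434 to 14169). Of the regions open at day 5 and in none of the other 3 MEF libraries (8025 to 8523), it called 6.76%, 0.972%, 2.79% and 2.30%. The highest of these came from MEF replicate 1, the longest list, and the lowest from MEF replicate 2, the shortest, in both readings. Among Tet2-E day 5 libraries the length of the list did not order the shares throughout, since replicate 3 called fewer than replicate 1 from a longer list. The part of list length was not tested.

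Gained and lost regions were sites of moderate width and of above-median strength. Gained regions had a median width of 362 bp and lost regions of 350 bp, against 605 bp for regions called in all 8 libraries, 286 bp for all regions called in at least 2 and 115 bp for those in 1 library. Merging the peaks of more libraries widens a region, so these widths depend in part on the number of calling libraries. Strength was read from the fold of each peak, the authors' ratio of summit pileup to local background, which belongs to its own list. Ranks were taken within a list, and regions were ordered by the median of their folds over the 4 libraries of 1 group, never between groups. Gained regions ranked at the 66.7th, 71.8th, 67.7th and 63.6th percentile of the peaks of Tet2-E day 5 libraries 1 to 4 by their median. Lost regions ranked at the 77.1st, 59.3rd, 68.3rd and 66.9th percentile of the peaks of MEF libraries 1 to 4. Regions called in all 8 ranked higher in every library, at 75.0 to 80.3 in Tet2-E day 5 and at 71.3 to 80.3 in MEF libraries. Regions seen in 1 library ranked lowest, between 20.2 and 27.3. A call in all 4 libraries of a group favours strong peaks, and the ranks were read in those same libraries. The ranks thus depend in part on the choice of regions.

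Strong sites were shared with the other group more often than weak ones. This reading was added after the values were seen and is given without a test. The 27925 regions called in every MEF library were ordered by their median fold in MEFs and cut into 4 equal bins. From the weakest to the strongest bin, Tet2-E day 5 libraries called 45.6% ± 2.11, 49.7% ± 1.92, 53.9% ± 2.39 and 61.3% ± 3.77 of them (SD, n = 4). The share called in none of the 4 Tet2-E day 5 libraries was 40.8%, 39.8%, 36.7% and 28.1% in the same order. Even in the strongest bin, with folds of 10.8 to 37.0, 28.1% of the fibroblast sites were thus called in no day 5 library. For the 23541 regions called in every Tet2-E day 5 library, MEF libraries called 48.7% ± 5.81, 53.9% ± 4.32, 59.7% ± 3.08 and 72.7% ± 1.68 (SD, n = 4). Of the strongest bin of these, with folds of 9.21 to 34.7, 23.9% were called in no MEF library, against 39.3% of the weakest bin. Stronger bins also held wider regions. From weakest to strongest, median widths were 373, 411, 460 and 525 bp for the MEF regions and 358, 411, 478 and 576 bp for the Tet2-E day 5 regions. A call needs an overlap of 1 bp and merging widens shared regions, and the part of width was not tested. A missing call in a weak region can be a peak just under the threshold of the caller, so the lists do not show whether such a region was closed.

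**Figure D3:**
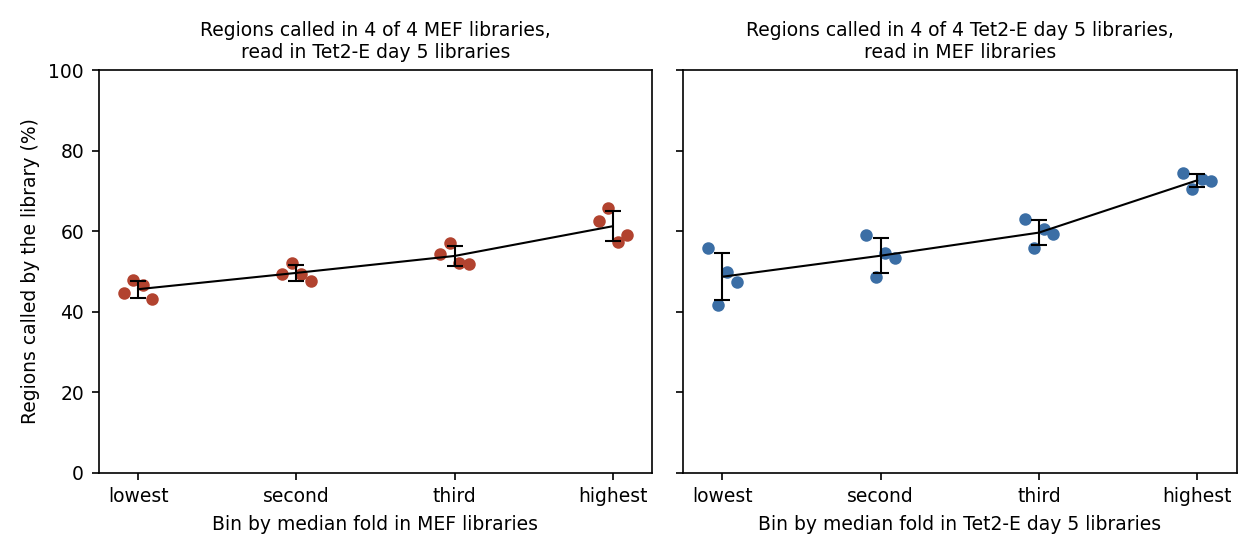
Share of regions called per library (percent), in 4 equal bins by median fold. Left, regions called in 4 of 4 MEF libraries read in Tet2-E day 5 libraries; right, regions called in 4 of 4 Tet2-E day 5 libraries read in MEF libraries. Points are libraries, lines are means and bars SD (n = 4); the mean is 61.3% in the highest bin on the left and 72.7% on the right.

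The strongest gained regions lay on several chromosomes and had no peak in any MEF library. The region on chromosome 6, chr6:101620434-101621037 (604 bp, mm9), had folds of 15.1, 15.0, 15.4 and 12.7 in Tet2-E day 5 libraries 1 to 4. All 4 values lay above the 98.5th percentile of their own list. On chromosome X, chrX:104183119-104183532 had folds of 11.4, 17.2, 15.1 and 14.9, with replicate 1 lowest. On chromosome 17, chr17:91030610-91031112 had folds of 13.7, 16.7, 15.5 and 12.4. The other 7 of the 10 leading gained regions had median folds between 13.7 and 14.5. They were chr16:85368073-85368477, chr10:129856707-129857470, chr14:55977226-55977680, chr13:118024213-118024579, chr4:61911795-61912316, chr4:95351277-95351949 and chr4:65991644-65992210. All 10 ranked above the 95.3rd percentile in every Tet2-E day 5 library. No gene was assigned to any region, because the annotation at hand is of another build than mm9.

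All 10 were also called in 4 of 4 libraries of each other group of the series: day 5 with wild-type Tet2 (Tet2-WT), day 5 with the empty vector and day 10 with any of the 3 vectors. The widest gained region, chr17:66828850-66829962, spanned 1113 bp, with folds of 9.94, 10.2, 8.52 and 11.5. It too was called in every reprogramming library and in no MEF library.

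The strongest lost regions ranked above the 96.5th percentile of every MEF list and had no peak in any Tet2-E day 5 library. On chromosome 8, chr8:95230238-95230549 (312 bp) had folds of 22.4, 22.0, 22.3 and 24.0 in MEF libraries 1 to 4. On chromosome 9, chr9:73800185-73800543 had folds of 27.9, 14.2, 21.4 and 22.2 in MEFs, with replicate 2 lowest. On chromosome 6, chr6:122565815-122566128 had folds of 22.4, 21.7, 20.5 and 18.9 in MEFs. The others of the 10 leading lost regions, with median folds in MEFs between 19.9 and 21.1, were chr1:29875694-29876086, chr8:63343696-63344070, chr6:96003486-96003805, chr1:96046535-96046979, chr13:80696400-80697032, chr3:114730879-114731323 and chr6:146134096-146134473. They lay on 6 chromosomes, 3 of them on chromosome 6. The widest lost region, chr8:15919893-15921254, spanned 1362 bp and had folds of 6.96, 5.44, 6.70 and 7.87 in MEFs, from the 17.0th to the 62.2nd percentile of their lists. It was called in 3 of 4 Tet2-WT and 3 of 4 empty-vector day 5 libraries and in none of day 10.

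These leading losses were less uniform than the leading gains across the other day 5 cells. The gains were picked by high fold at day 5 and the losses by high fold in MEFs. This contrast thus depends in part on the choice of regions. Of the 10 leading losses, 4 were called in no Tet2-WT or empty-vector library of day 5. Those were chr6:122565815-122566128, chr8:63343696-63344070, chr6:96003486-96003805 and chr6:146134096-146134473. The leading region, chr8:95230238-95230549, was called in 4 of 4 empty-vector and 2 of 4 Tet2-WT day 5 libraries. At day 10, 9 of the 10 were called in none of the 12 libraries, and that region in 1.

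In the libraries that had no part in choosing the regions, most gained regions were called and most lost regions were not. Gained regions were called by 94.1% ± 0.812 per library at day 5 with Tet2-WT and by 90.7% ± 3.66 with the empty vector (SD, n = 4 each). Single libraries called 94.4%, 93.4%, 93.5% and 95.1% with Tet2-WT, and 87.0%, 89.7%, 95.7% and 90.2% with the empty vector. Lost regions were called by 7.09% ± 4.41 per library with Tet2-WT and by 7.72% ± 5.98 with the empty vector. These shares were uneven: Tet2-WT libraries 1 to 4 called 4.16%, 3.32%, 13.0% and 7.86% of the lost regions, and empty-vector libraries 2.38%, 2.97%, 14.4% and 11.1%. In both vectors replicates 3 and 4 lay above replicates 1 and 2, while in Tet2-E day 5 cells the choice of lost regions set all 4 libraries to 0. Replicates 3 and 4 were also the longer lists, with 55930 and 56121 peaks against 48936 and 47570 with Tet2-WT. With the empty vector they held 60154 and 49642 against 42539 and 44357. List length ordered the shares throughout only with the empty vector, and its part was not tested. In the readings with a day 5 library set aside, replicates 3 and 4 with Tet2-E called 3.64% and 3.44% of the regions open in MEFs, below replicates 1 and 2. These values were not tested against those of the other vectors, since their regions differ.

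Seen over all 8 other day 5 libraries, 5479 gained regions (68.9%) were called in 8 of 8 and none in 0 of 8. Of the lost regions, 6664 (65.6%) were called in 0 of 8, 2026 in 1, and none in 8 of 8. Thus no region gained with Tet2-E was without a peak in every other day 5 library, and no lost region had a peak in all of them. Comparisons of these groups with MEFs share the 4 MEF libraries, and no overlap of their results was computed.

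At day 10 most losses remained uncalled and fewer gains were called. Gained regions were called by 69.2% ± 11.8 per library at day 10 with Tet2-E, 71.6% ± 8.00 with Tet2-WT and 68.0% ± 5.62 with the empty vector (SD, n = 4 each). With Tet2-E the single libraries called 81.7%, 75.8%, 63.9% and 55.5%, and their background pileups were 0.768, 0.636, 0.466 and 0.361, in the same order. With Tet2-WT they called 76.6%, 78.2%, 70.9% and 60.5% at backgrounds of 0.619, 0.587, 0.532 and 0.395, and with the empty vector 74.8%, 66.6%, 69.4% and 61.3% at 0.506, 0.495, 0.482 and 0.42. In each vector the library of lowest background called the fewest, but the orders matched throughout only with Tet2-E. The lists held 45871, 40949, 32575 and 27809 peaks with Tet2-E and 40669, 50552, 36365 and 30794 with Tet2-WT. With the empty vector they held 40989, 36979, 37140 and 31170. In every vector a longer list called more of the gained regions, in the same order throughout. The parts of depth and of list length were not tested. Regions called in all 8 libraries were called by 90.2% ± 4.99 per Tet2-E day 10 library (SD, n = 4). Of the 7947 gained regions, 3169 (39.9%) were called in all 4 Tet2-E day 10 libraries and 563 (7.08%) in none. Lost regions were called by 1.37% ± 0.871 per library at day 10 with Tet2-E, 1.67% ± 0.774 with Tet2-WT and 1.48% ± 0.552 with the empty vector (SD, n = 4 each). Of the 10151 lost regions, 9715 (95.7%) were called in 0 of 4 Tet2-E day 10 libraries.

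**Figure D4:**
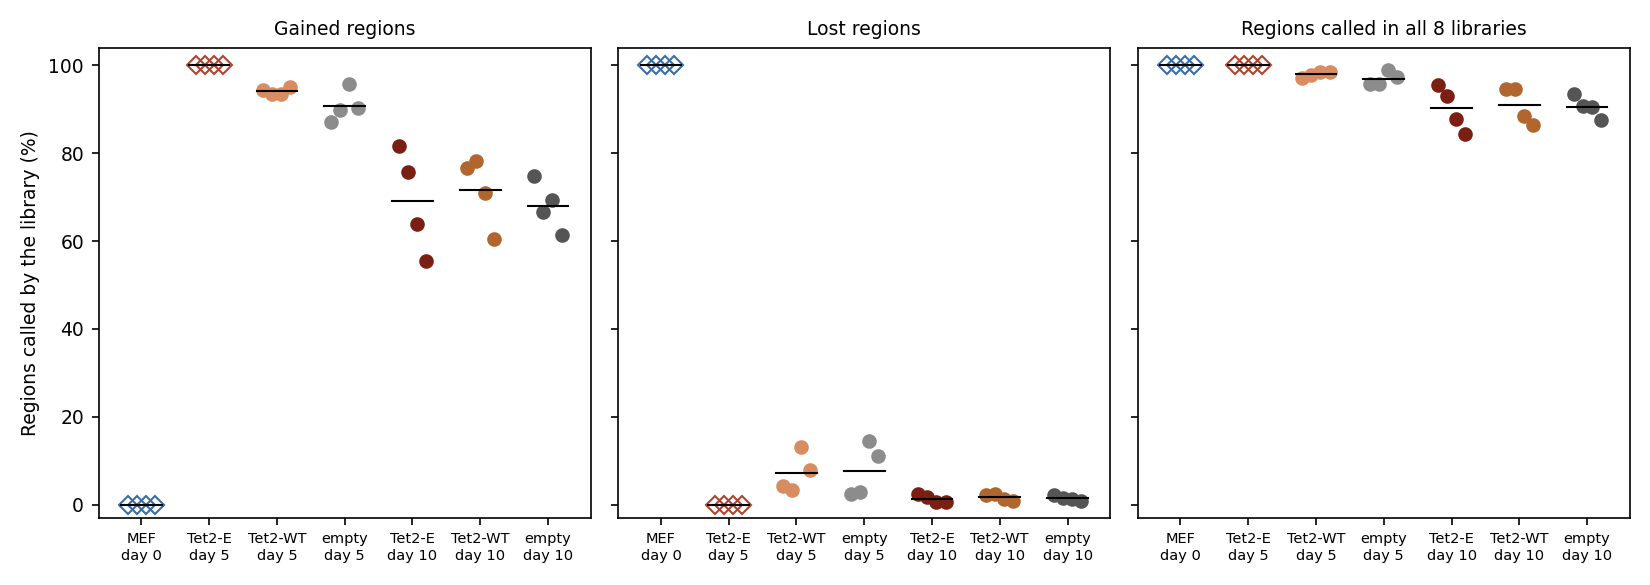
Share of the gained, lost and always-called regions called by each library (percent), from MEFs over day 5 to day 10. Points are libraries and lines are means; open diamonds mark the 8 libraries that chose the regions, whose values are 0 or 100 by that choice. Day 5 libraries with Tet2-WT or the empty vector called 87.0% to 95.7% of gained and 2.38% to 14.4% of lost regions.

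The design also asks whether Tet2-E cells differed at day 5 from cells with Tet2-WT or the empty vector. No region passed that test. The peaks of the 12 day 5 libraries merged into 111555 regions, of which 18038 were called in all 12. A 2-sided Fisher's exact test of 4 Tet2-E against 8 other libraries was possible for 29138 regions, and 0% of them passed (lowest adjusted p = 1), with 216 at unadjusted p under 0.05. With replicate numbers as a block, 0 of 11051 regions passed (exact conditional test, lowest adjusted p = 1, 254 at unadjusted p under 0.05). This block test was added after the data were seen. Tested separately, 0 of 6210 regions passed against Tet2-WT alone (159 at unadjusted p under 0.05). Against the empty vector alone, 0 of 6237 passed (114). With so few libraries and so many regions, these adjusted tests can pass only when a large number of regions split completely or nearly so. That none passed therefore does not show that the vectors were alike at day 5. At the extreme, 3 regions were called in 4 of 4 Tet2-E and 0 of 8 other libraries, and 1 in 0 of 4 and 8 of 8 (exact p = 0.00202, the smallest possible, adjusted p = 1). The first 3 were chr1:33729480-33729612, with folds of 6.61, 6.15, 4.68 and 6.31 in Tet2-E libraries, chr7:26645483-26645656 and chr9:88437693-88437912. They were narrow, at 133, 174 and 220 bp, and had been called in 2, 1 and 4 MEF libraries. The region called in all 8 others and in no Tet2-E library was chrX:136406093-136406353, with folds of 4.34 to 9.04 in those libraries.

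Changed regions were spread over the genome, and most stretches of chromosome held both kinds. In 2517 windows of 1 Mb that held a region called in at least 2 libraries, the median window held 3 gained and 4 lost regions. Both kinds occurred in 1956 windows, gained alone in 144 and lost alone in 257. Most gained regions in 1 window, 19 beside 2 lost, lay on chromosome 10 between 6 and 7 Mb. That window held 41, 43, 41 and 38 peaks in Tet2-E day 5 libraries, against 36, 17, 23 and 28 in MEF libraries, so the groups did not overlap. Next came chromosome 11 between 88 and 89 Mb, with 17 gained and 5 lost. There the peaks did not part the groups, at 52, 57, 52 and 43 in Tet2-E day 5 libraries and 46, 27, 51 and 33 in MEF libraries. Of 4 windows with 15 gained regions, the first in chromosome order lay on chromosome 2 between 103 and 104 Mb, with 2 lost. The chromosome 2 window held 50, 58, 50 and 45 peaks in Tet2-E day 5 libraries, against 40, 24, 39 and 25 in MEF libraries.

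Most lost regions in 1 window, 18 beside 6 gained, lay on chromosome 8 between 129 and 130 Mb. That window held 44, 45, 40 and 32 peaks in Tet2-E day 5 libraries, against 71, 52, 64 and 63 in MEF libraries. On chromosome 6 between 17 and 18 Mb, 17 regions were lost and 3 gained, with 29, 33, 28 and 37 peaks in Tet2-E day 5 libraries, against 67, 45, 63 and 59 in MEF libraries. In both windows every Tet2-E day 5 library held fewer peaks than any MEF library. On chromosome 6 the Tet2-WT and empty-vector libraries of day 5 held up to 45 and 48 peaks, so they reached the lowest MEF library. On chromosome 8 between 126 and 127 Mb, 17 were lost and 6 gained, but the peaks did not part the groups, at 65, 76, 65 and 58 in Tet2-E day 5 libraries and 87, 45, 68 and 63 in MEF libraries. These windows were picked for their counts and carry no test.

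Changed regions lay beside changed regions of the same kind somewhat more often than regions in general, as regions called in all 8 libraries did with each other. The nearest region called in at least 2 libraries was itself gained for 14.3% of gained regions, against 9.66% over all such regions. It was itself lost for 17.0% of lost regions, against 12.1% over all. Going from one changed region to the next along a chromosome, the longest unbroken run of losses held 31 regions over 3.11 Mb, chr8:116742512-119853096. That stretch held 45, 52, 43 and 37 peaks in Tet2-E day 5 libraries, against 131, 71, 104 and 91 in MEF libraries. It still held 11 regions called in all 8 libraries, so the whole stretch did not close in the peak lists. At day 5 it held 56, 45, 53 and 55 peaks with Tet2-WT and 33, 42, 61 and 57 with the empty vector, all below the lowest MEF library. The longest run of gains held 13 regions over 0.644 Mb, chr4:123649649-124293185. It held 25, 20, 22 and 19 peaks in Tet2-E day 5 libraries, against 13, 6, 6 and 6 in MEF libraries, with no region called in all 8. The runs were found by their counts and are given as a description.

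Distances were also read to the sites called in all 8 libraries. Within 5 kb of such a site lay 5.93% of gained and 3.18% of lost regions. Of these sites themselves, 6.68% had another such site within 5 kb. The median distance was 60.8 kb for gained and 70.2 kb for lost regions, and 37.6 kb between these sites. Within the sites called in all 8 libraries the day 5 peaks were shorter. There the median length covered per region was 318, 355, 328 and 342 bp in Tet2-E day 5 libraries, against 482, 363, 399 and 381 bp in MEF libraries. Every Tet2-E day 5 library lay below every MEF library there.

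The share of losses among changed regions varied between chromosomes. Lost regions made up 63.9% of changed regions on chromosome 8, 62.4% on chromosome 18 and 61.8% on chromosome 15, against 50.9% on chromosome X, the lowest. In the peak lists, chromosome 8 held 5.99%, 6.00%, 5.41% and 6.16% of the peaks of Tet2-E day 5 libraries, against 6.44%, 6.76%, 6.63% and 6.69% in MEF libraries. Chromosome 11 held 6.80%, 7.09%, 7.12% and 6.99%, against 6.28%, 6.30%, 6.42% and 6.40% in MEF libraries. The groups did not overlap on 10 of the 20 chromosomes, 50% of them. Tet2-E day 5 libraries were higher on chromosomes 2, 4, 6, 7, 11 and 17 and lower on 8, 13, 15 and 18. Each had the smallest p that the design allows, and none of the 20 passed (exact permutation p = 0.0286, adjusted p = 0.0571). Without Tet2-E day 5 replicate 2, 12 chromosomes passed (exact permutation, adjusted p = 0.0476).

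The other vectors of day 5 were read on the same chromosomes. Chromosome 8 averaged 5.89% ± 0.329 with Tet2-E, 5.85% ± 0.235 with Tet2-WT and 5.91% ± 0.138 with the empty vector, against 6.63% ± 0.140 in MEFs (SD, n = 4 each). Replicate 3 was the lowest library of each vector at day 5, at 5.41%, 5.57% and 5.73%. At day 10 with Tet2-E the chromosome averaged 6.39% ± 0.197. Chromosome 11 averaged 6.79% ± 0.0249 with Tet2-WT and 6.79% ± 0.252 with the empty vector at day 5, and 7.37% ± 0.313 at day 10 with Tet2-E, against 6.35% ± 0.0690 in MEFs (SD, n = 4 each).

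**Figure D5:**
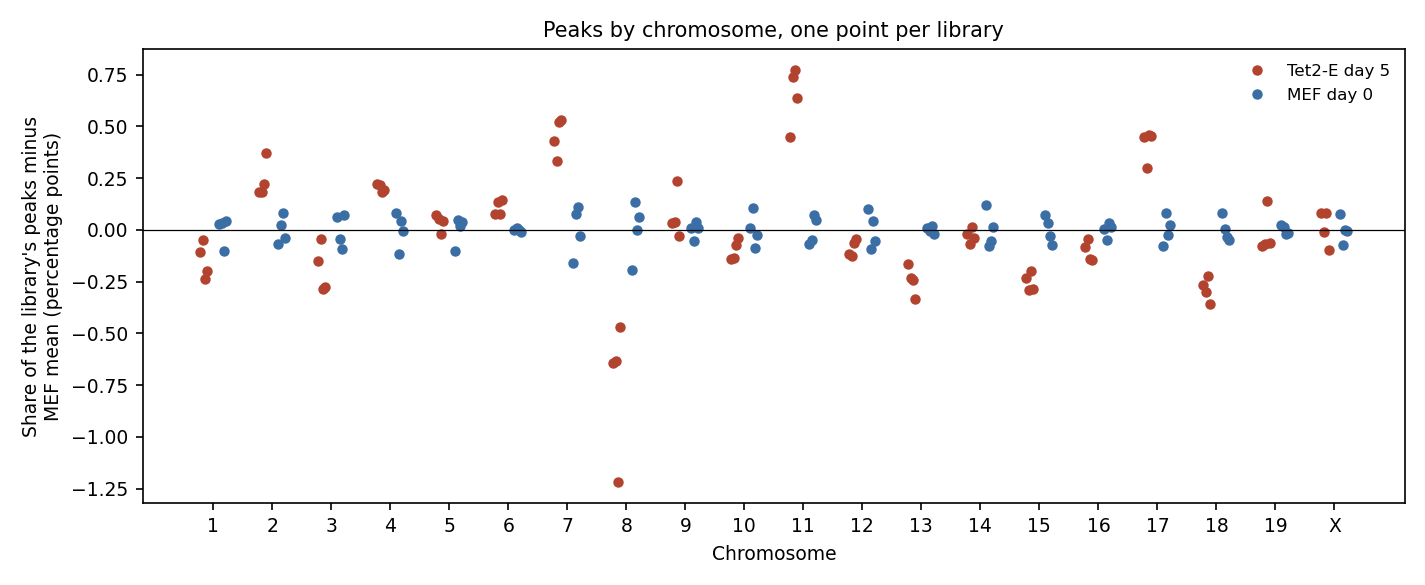
Share of each library's peaks on each chromosome minus the mean share of the MEF libraries, in percentage points, with Tet2-E day 5 libraries left of MEF libraries. Points are libraries; chromosomes 7, 11 and 17 stand above 0 and chromosome 8 below it in all 4 Tet2-E day 5 libraries, with chromosome 8 at a mean share of 5.89% against 6.63% in MEFs.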

How the data were processed

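ATAC-seq peak lists of 28 libraries (7 groups of 4) were deposited, 1 list per library. The submitters' processing notes name Bowtie2, SAMtools, bedtools, MACS2 and mm9; the sources used here give no version, setting or cut-site shift. The deposited columns are the authors' fold (a ratio of summit pileup plus 1 to local background plus 1), -log10 p-value, -log10 q-value (lowest just above 2, a q of 0.01), and a score equal to 10 times the -log10 q in whole numbers. These values ranked and filtered peaks within a list; folds were also summarised as the median over the 4 lists of a group to order regions, and fold and p gave each library's background pileup. Groups and replicate numbers came from the labels.

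Peaks on 20 chromosomes were merged over the 8 libraries (overlap of 1 bp or more), and a library called a region when a peak of it overlapped. Coordinates are mm9, counted from 1. Regions were compared by 2-sided Fisher's exact tests with Benjamini-Hochberg adjustment (threshold 0.05), and library values by 2-sided exact permutation tests. Depth was inferred from whole-number pileups, recovered for 100% of peaks within 0.0002 in -log10 p. Tests were checked on simulated data. Python 3.11.15, NumPy 2.4.6, pandas 2.3.3 and SciPy 1.17.1 were used.

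Members, lists and tests were chosen with earlier results of these data known. Named regions were the 10 gained and 10 lost of highest median fold, the 3 windows richest in each (ties by chromosome order) and the widest of each; a planned naming of gained regions absent from all other day 5 libraries, and of lost regions present in all, found none. Gene loci and cell type markers were not used here, since the gene annotation at hand is of another build. Alternatives are equal peak numbers, stricter q, 50% cover, summits, a wider adjustment, a replicate block and leaving out each library.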

Additional observations from a re-analysis of the deposited data

Results flagged for a closer look

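Of 87 groups of 4 library values examined, 4 held a library far from the other 3, and chance gives about 1 in 20. Tet2-E day 5 replicate 2 had the lowest share of peaks on chromosome 17, at 4.26%, still above every MEF library. Tet2-E day 5 replicate 3 had the highest share on chromosome 19, at 2.85%. MEF replicate 3 had the lowest share on chromosome 1, at 6.87%. In the leading gained region, chr6:101620434-101621037, Tet2-E day 5 replicate 4 had a fold of 12.7, the lowest of the 4.

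Peaks outside the chromosomes compared, on chromosome Y and unplaced sequences, averaged 180.5 ± 16.2 per library in Tet2-E day 5 cells and 143 ± 36.4 in MEFs (SD, n = 4 each; exact permutation p = 0.114). They are listed because no comparison used them, and their level was above that of the MEF libraries on average only.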

How the results depend on the processing

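No result turned its direction. Gained and lost regions numbered 0 and 0 when adjusted over all regions called in at least 2 libraries (Fisher's exact test, adjusted p = 0.128), and 0 to 9777 gained and 0 to 14213 lost with 1 library left out; calls ended without Tet2-E day 5 replicate 1, 2 or 3, where more regions could be tested with fewer libraries. The calls of same-numbered Tet2-E day 5 and MEF libraries hardly deviated together (correlations of -0.00147, 0.0336, -0.00066 and -6.1e-05). Same-numbered day 5 libraries of different vectors correlated by at most 0.0416. These values cannot show whether equal numbers mark a shared culture, animal or batch, which the labels do not say. A replicate block gave 0 gained and 0 lost regions, where the smallest exact p is 0.125. Gained and lost were 7392 and 8370 with equal peak numbers, 6410 and 8741 with a stricter q, 4826 and 8212 with peaks covering 50% of a region, and 6618 and 9248 around summits. In that order 6694, 5998, 4296 and 6259 of the gained overlapped those reported. The lost share was 53.1%, 57.7%, 63.0% and 58.3% in the same order, 54.7% with equal peak numbers and no MEF replicate 1 (chosen after seeing the data), and 51.8% to 63.9% with 1 library left out, highest without MEF replicate 2. Equal peak numbers brought covered length (-2.19 Mb), median width (-48.5 bp), share within 5 kb (10.4 points) and the Jaccard difference (0.251) past the threshold (exact permutation, adjusted p = 0.0357). Background pileup was left out of that adjustment, and width and the Jaccard difference kept their unadjusted p. Chromosomes passing ranged over 0 to 12. Gained regions were called by 91.8% per Tet2-WT day 5 library with equal peak numbers. With 1 library left out they were called by 89.5% to 94.0% there, 85.5% to 90.6% with the empty vector at day 5 and 62.4% to 68.1% at day 10. All 20 leading regions were kept with equal peak numbers, the stricter q and 50% cover, and 18 around summits. Of the 20, 0 passed when adjusted over all regions called in at least 2 libraries, and 0 without Tet2-E day 5 replicate 1, 2 or 3. With 1 library left out, the difference in peaks per library ranged over -12100 to -1835, in covered length over -4.58 to -1.93 Mb (both smallest without MEF replicate 1), and in share within 5 kb over 4.53 to 8.52 points (smallest without MEF replicate 2). Leading regions apart, 153 alternative values were classed as unchanged. Another 16 were classed as moved, 10 as weaker and 4 as stronger. For values per library, unchanged meant the same direction and the same side of the threshold. Counts and shares were classed as unchanged within a set margin of the main value, so they could still differ. The 14213 lost regions without MEF replicate 2, against 10151, were classed so. Read depth was inferred, and 4 libraries per group limit every p; the lists hold called peaks only.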
